A study of Mus musculus with 10 samples.

Results

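Keratins, junction proteins, uroplakins and tetraspanins were followed in the mouse urinary bladder after instillation of LPS or SP, in PAR1-/- and wild type (WT) mice. The set was taken by gene name: keratins and keratin-associated proteins, uroplakins with the related tetraspanins, numbered cadherins and protocadherins, claudins, occludin and tight junction proteins, connexins, catenins and desmosomal cadherins. The rule found 73 probes for 73 genes among the 5030 probes of the array, which name 4605 genes. Array intensities could be recovered for 68 of them, and the other 5 are given separately.

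Each array held the cDNA of 8 pooled bladders of female mice, and each condition had 1 array, so that no condition had a replicate. PAR1-/- mice, bred on the C57BL/6J background, lack F2r, the gene of the thrombin receptor PAR1. They received LPS at 100 µg/ml, SP at 20 µM or saline. WT mice received LPS at 100 µg/ml, SP at 10 µM or saline, so that by the labels the SP dose and the genotype cannot be told apart. LPS is the lipopolysaccharide of the outer membrane of Gram-negative bacteria, and SP (substance P) is a neuropeptide of sensory nerves. LPS and SP arrays were from 4 and 24 h after instillation, and the saline arrays were from 24 h only, so that ratios at 4 h also carry a difference in time.

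The bladder is lined by the urothelium, a layered epithelium of basal, intermediate and umbrella cells. Umbrella cells cover their surface with plaques of uroplakins, which are related to tetraspanins, and seal the space between cells with claudins. Keratins form the intermediate filaments of epithelia in pairs of type I and type II, and cadherins hold neighbouring cells together and bind catenins on the inner face of the membrane. The deeper bladder wall is mostly smooth muscle. In RNA from whole bladder, fewer epithelial cells and less RNA per cell cannot be told apart.

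For 46 of the 73 genes RefSeq (build GRCm38.p6) gave a stretch from 250 bases before to 50 bases after a start of transcription. The keratin beyond 3-fold (Krt71), a mucosal keratin (Krt13), and a tetraspanin and a claudin with signal on every array (Cd82 and Cldn3) are shown, each from the most upstream start of its gene. Capitals mark TATAAA (the TATA box letters), TGANTCA (AP-1-like letters, a loose form where N is any base) and GGGCGG (a GC box), searched on both strands. None of these motifs overlapped another in the stretches shown.
Krt71, chr15:101743048-101743347, minus strand: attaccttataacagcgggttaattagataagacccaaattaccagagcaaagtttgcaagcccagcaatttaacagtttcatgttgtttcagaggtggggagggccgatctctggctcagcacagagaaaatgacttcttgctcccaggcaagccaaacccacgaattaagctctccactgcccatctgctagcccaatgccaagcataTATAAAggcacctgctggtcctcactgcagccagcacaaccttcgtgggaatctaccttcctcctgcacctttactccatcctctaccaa
Krt13, chr11:100121517-100121816, minus strand: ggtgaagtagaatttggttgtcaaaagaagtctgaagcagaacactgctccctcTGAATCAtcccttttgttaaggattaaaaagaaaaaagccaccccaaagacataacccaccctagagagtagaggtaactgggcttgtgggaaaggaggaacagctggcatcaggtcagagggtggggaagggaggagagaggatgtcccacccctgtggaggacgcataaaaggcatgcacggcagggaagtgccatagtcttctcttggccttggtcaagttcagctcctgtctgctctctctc
Cd82, chr2:93462901-93463200, minus strand: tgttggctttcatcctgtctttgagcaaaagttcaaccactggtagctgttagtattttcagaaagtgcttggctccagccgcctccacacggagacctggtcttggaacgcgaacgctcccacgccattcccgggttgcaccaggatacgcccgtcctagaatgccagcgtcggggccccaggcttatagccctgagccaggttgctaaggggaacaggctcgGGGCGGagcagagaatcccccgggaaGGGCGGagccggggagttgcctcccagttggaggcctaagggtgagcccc
Cldn3, chr5:134985964-134986263, plus strand: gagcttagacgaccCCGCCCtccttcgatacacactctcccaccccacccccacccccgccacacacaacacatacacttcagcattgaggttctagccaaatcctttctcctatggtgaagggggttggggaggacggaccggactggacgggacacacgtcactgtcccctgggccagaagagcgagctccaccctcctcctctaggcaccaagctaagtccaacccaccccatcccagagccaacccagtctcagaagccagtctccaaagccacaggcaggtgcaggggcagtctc

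The TATA box letters were present in a promoter of 10 of the 14 keratin and keratin-associated genes in the table, against 5 of the 31 cadherin, catenin, claudin, connexin, tight junction and tetraspanin genes. Of all 32851 promoters 13.6% held them. The GC box letters showed the opposite split, with 0 of the 14 keratin genes and 20 of the 31 other genes, against 35.7% of all promoters. The AP-1-like letters were found in 1 keratin gene (Krt13, with A as the middle base) and in 1 of the others, against 7.81% of all promoters. A gene was counted when any of its promoters held the letters (60 promoters for 46 genes), while the shares are of single promoters. Genes with several starts could thus be counted more easily. These counts describe letters in the sequence and do not show that a factor binds there.

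Signal was low for most of the set. A probe was taken as above background on an array when its intensity exceeded the mode of that array by 3 SD of the values below the mode, which put the threshold between 12.1 and 33.0. Of the 68 genes, 5 (7.35%) were above background on all 10 arrays, against 10.5% of all probes, and these were Cd63, Cd82, Cdh2, Cldn3 and Tspan6. On no array above background were 28 (41.2%), against 34.5% of all probes. Of the keratins, 13 of 16 were above background on at least 1 array, though none on all 10. Only 4 of 12 tight junction genes with intensities were, and occludin (Ocln), Tjp1 and Tjp3 were at background on every array.

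**Figure D1:**
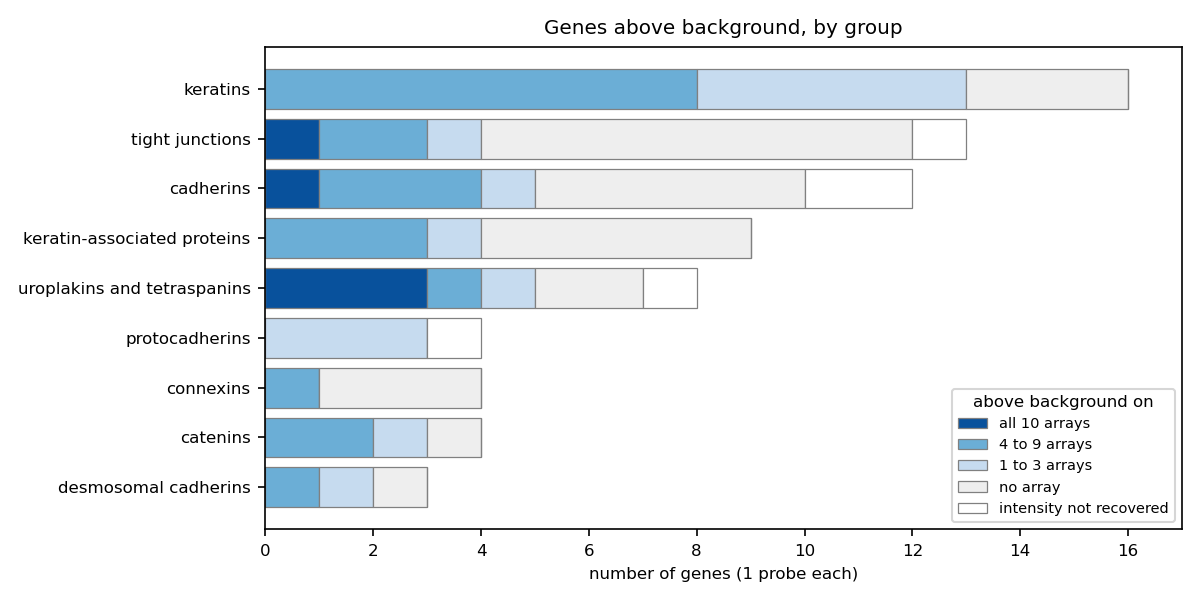
Bars give the number of genes of each group (x axis) by the number of arrays on which the probe was above background. Genes above background on all 10 arrays occur in 3 groups (cadherins, tight junctions, and uroplakins with tetraspanins), and no keratin reached all 10.

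The arrays differed in brightness. The summed intensity ran from 69106 to 73146 on both saline arrays and the WT array of SP at 24 h, and from 114664 to 275793 on the other 7 arrays. The single value 15 was held by 86.5% of the probes on the WT array of 24 h after LPS, and only 5 of the 68 genes were above background there. Intensities were therefore normalized between arrays by a robust regression over the 502 probes above background on all arrays. Values of the 4 challenged arrays of a genotype are always listed as LPS 4 h, LPS 24 h, SP 4 h and SP 24 h. Ratios are given to the saline array of the same genotype, as "at least" where the saline array was at background and as "at most" where the challenged array was. F2r itself had intensities of 17, 18, 51 and 21 on challenged PAR1-/- arrays and 11 after saline, against 195, 15, 22 and 11 on challenged WT arrays and 10 after saline. As no source names the stretch of the transcript behind this probe, its values are no check of the labels.

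**Figure D2:**
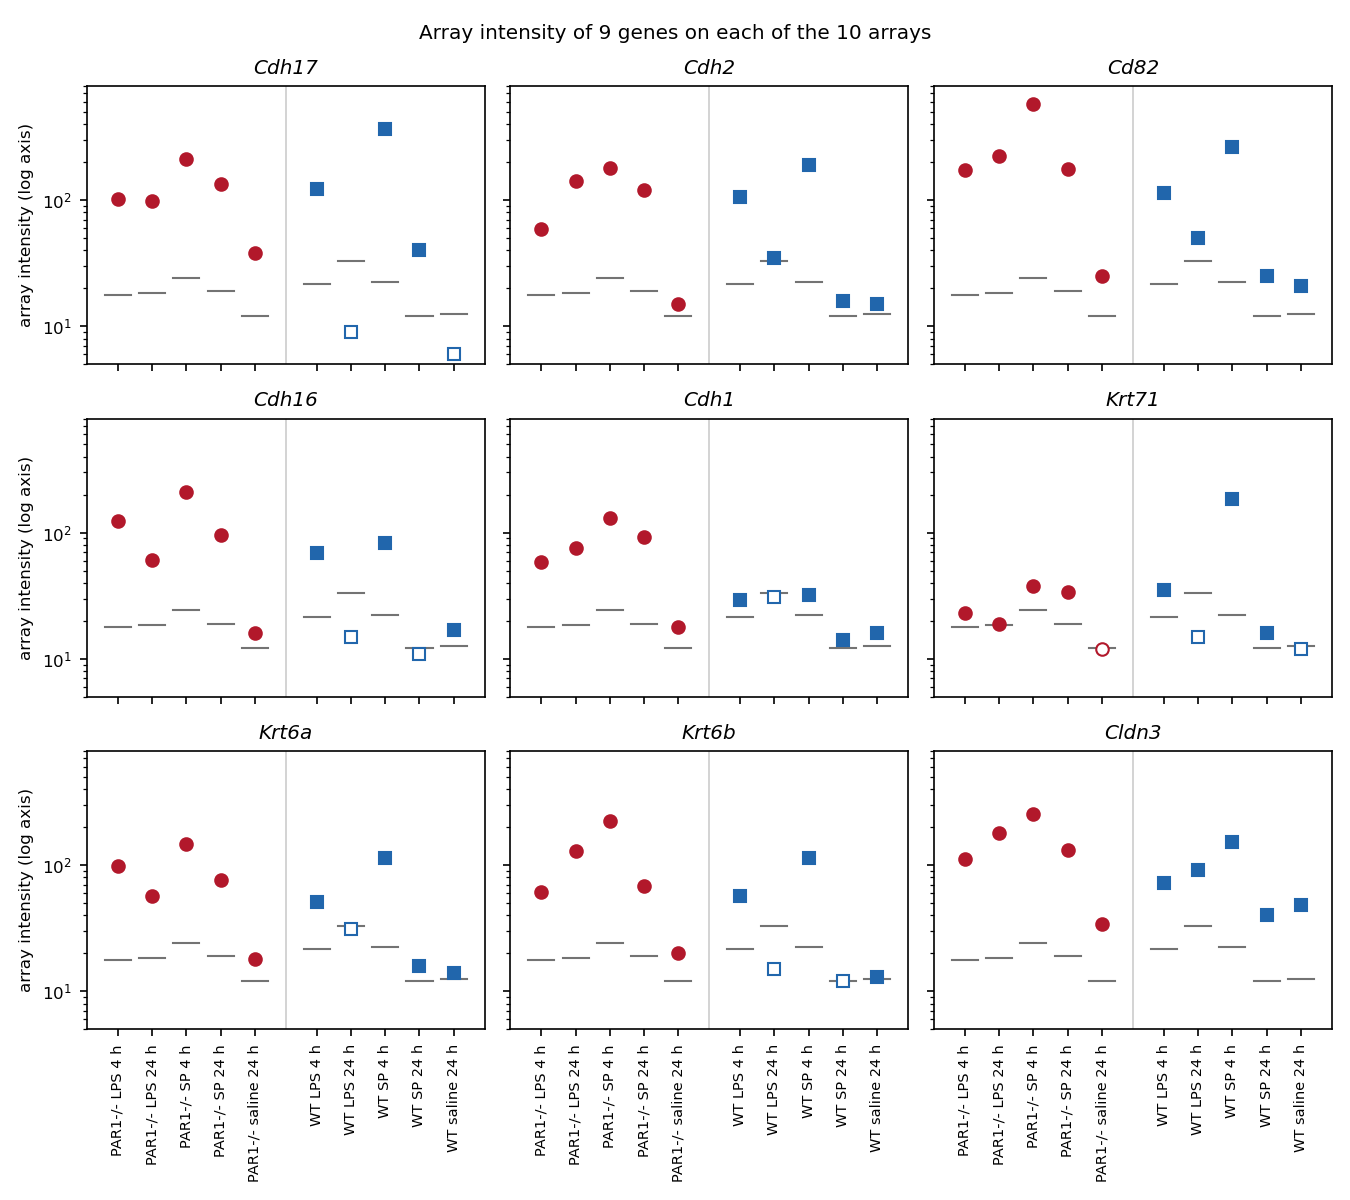
Points are recovered array intensities (log axis) of 9 genes on the 10 arrays, PAR1-/- as red circles and WT as blue squares. Grey lines are the background threshold of each array, and open symbols lie at or under it. Cd82 and Cldn3 are above the lines on all 10 arrays, and Cdh17 and Krt71 are under them after saline in WT mice.

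The question put by the design was which genes respond to LPS or SP, and whether they do so in mice without PAR1. In PAR1-/- bladders 3 genes of the set were more than 3-fold above saline in at least 1 of the 4 comparisons, against 3.3% of all probes with a ratio. They were N-cadherin (Cdh2), Ksp-cadherin (Cdh16) and the tetraspanin Cd82, of which Cdh16 (highest ratio 3.08) fell short at 2.68 when arrays were shifted to equal means. In WT bladders 4 genes were, namely Cdh17, Cdh2, Krt71 and Cd82, against 6.67% of all probes. The WT call of Cd82 was lost under 3 of 6 alternatives, as given with its values. No gene of the set was more than 3-fold below saline in PAR1-/- bladders, where 3.34% of all probes were, or in WT bladders, where 1.69% were. Because each side of a ratio is 1 array, no test was made of any ratio.

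By comparison, in PAR1-/- bladders 1 of 25 genes with a ratio was more than 3-fold higher after LPS at 4 h (1.84% of all probes), 1 of 24 after LPS at 24 h (1.32%), 1 of 24 after SP at 4 h (1.28%) and 1 of 27 after SP at 24 h (1.57%). The WT counts were 2 of 30 after LPS at 4 h (5.46% of all probes), 0 of 9 after LPS at 24 h (1.73%), 4 of 28 after SP at 4 h (4.69%) and 1 of 27 after SP at 24 h (0.772%). The median ratio of the set was 1.15, 1.36, 1.18 and 1.17 in PAR1-/- bladders, where all probes had 0.958, 1.00, 0.888 and 0.983. In WT bladders it was 1.18, 0.974, 1.01 and 0.916 in the same order, where all probes had 1.11, 0.913, 0.929 and 0.993. Each count was 4 or fewer, too few to read anything particular to the set from these shares.

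**Figure D3:**
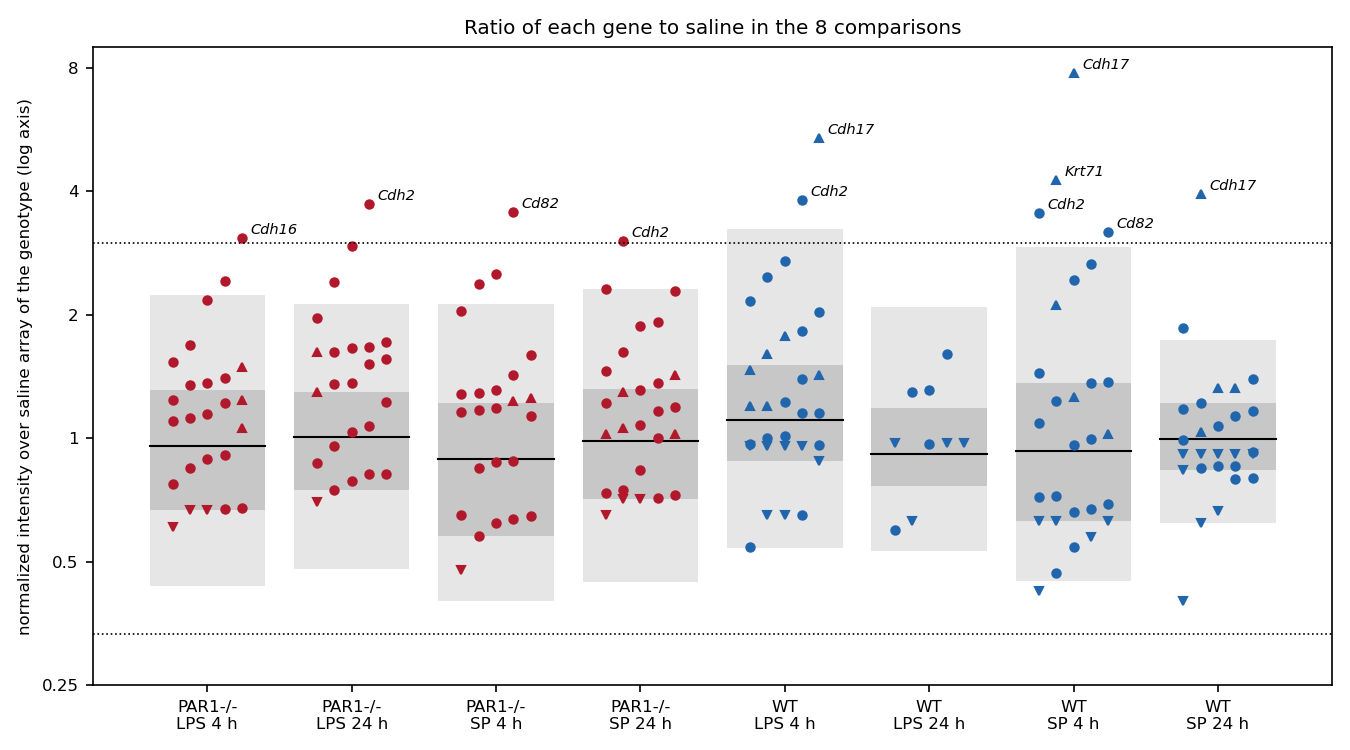
Points are ratios of normalized intensity to the saline array of the genotype (log axis) for each gene with a ratio, with triangles up for "at least" and triangles down for "at most". Light and dark bands hold the middle 90% and 50% of all probes, black lines their median, and dotted lines 3-fold in each direction. All named points lie above the upper dotted line, and no point lies under the lower one.

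Among the cadherins, Cdh2 was above background on all 10 arrays. N-cadherin is the cadherin of neural and mesenchymal tissue and of muscle. Its intensity in PAR1-/- bladders was 59, 142, 179 and 119, against 15 after saline. The WT arrays gave 106, 35, 190 and 16, against 15 after saline. The saline arrays were thus alike, and the high WT values were those at 4 h.
After normalization the PAR1-/- ratios of Cdh2 were 1.68, 3.73, 2.38 and 3.02. The WT ratios were 3.80, 1.30, 3.53 and 1.07. In PAR1-/- bladders both 24 h ratios were above both 4 h ratios, and in WT bladders both 4 h ratios were above both 24 h ratios. This difference in time course between genotypes was not tested. Of the WT arrays at 24 h, one holds a single value for most probes and the other is among the dimmest, and the part of that in the result was not tested.

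Cdh17 encodes the cadherin of intestinal epithelium, also named LI-cadherin. Its recovered intensity was 102, 99, 211 and 135 on challenged PAR1-/- arrays, against 38 after saline. In WT bladders it was 122, 9, 363 and 40, against 6 after saline. Both WT arrays without signal were those of saline and of LPS at 24 h. The ratios were 0.889, 0.871, 0.878 and 1.08 in PAR1-/- bladders, and at least 5.39 after LPS at 4 h, at least 7.76 after SP at 4 h and at least 3.95 after SP at 24 h in WT bladders. With the mean of both saline arrays as the base these values were 2.60, 3.74 and 1.90, of which the one after SP at 4 h is beyond 3-fold. The contrast between genotypes rests in part on saline: the saline level was at least 4.29-fold higher in PAR1-/- than in WT bladders. Before normalization the PAR1-/- intensities were also 2.68, 2.61, 5.55 and 3.55 times those of saline.
The level of Cdh17 is less sure than that of other genes. Its value of 9 in WT bladders at 24 h after LPS is one of 12 values under 15 on that array, where the next value in use is 29, so that its intensities may all be too low by a common factor. With all of them multiplied by 4, which was tried after the data were seen, the WT ratios were 9.56, 12.3 and 9.49 for the same 3 comparisons, and the PAR1-/- ratios were 0.580, 0.524, 0.548 and 0.666. Whether the PAR1-/- ratio after SP at 24 h is above or below 1 thus depends on this factor.

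Cdh16 encodes the kidney-specific cadherin, and Cdh1 encodes E-cadherin, the cadherin of adherens junctions in epithelia. Cdh16 had intensities of 124, 61, 209 and 96 in PAR1-/- bladders, against 16 after saline, and 69, 15, 82 and 11 in WT bladders, against 17 after saline. Cdh1 had 59, 75, 130 and 92 in PAR1-/- bladders, against 18 after saline, and 29, 31, 32 and 14 in WT bladders, against 16 after saline. For both genes the saline arrays were alike, and each challenged PAR1-/- array had a higher intensity than its WT partner. The Cdh16 ratios were 3.08, 1.66, 2.52 and 2.31 in PAR1-/- bladders, and 2.16, 1.44 and at most 0.665 in WT bladders after LPS at 4 h, SP at 4 h and SP at 24 h. The Cdh1 ratios were 1.35, 1.72, 1.43 and 1.92 in PAR1-/- bladders, and 0.999, 0.672 and 0.846 in WT bladders for the same 3 WT comparisons. Cdh4 was above background on 3 arrays, and Cdh8, Cdh11, Cdh13, Cdh15 and Cdh20 on none.

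The tetraspanins are membrane proteins with 4 crossings, to which the uroplakins Upk1a and Upk1b belong. Cd82, a tetraspanin that restrains cell migration, had intensities of 173, 224, 571 and 177 in PAR1-/- bladders, against 25 after saline. The WT arrays gave 113, 50, 265 and 25, against 21 after saline. All 4 challenged PAR1-/- arrays were above every WT array except that of SP at 4 h. The ratios were 2.42, 2.95, 3.56 and 2.29 in PAR1-/- bladders, and 2.71, 1.31, 3.17 and 1.22 in WT bladders. Cd82 was thus above saline in all 8 comparisons, beyond 3-fold after SP at 4 h in each genotype. The WT ratio of 3.17 was 2.68 with quantile normalization, 2.90 with a shift to equal means and 2.69 against the mean of both saline arrays, all under 3-fold, while the PAR1-/- ratio of 3.56 stayed above it.
Cd63, a tetraspanin of late endosomes and lysosomes, was also above saline in all 8 comparisons. Its intensities were 58, 74, 100 and 57 in PAR1-/- bladders, against 16 after saline, and 44, 48, 77 and 19 in WT bladders, against 17 after saline. The ratios were 1.53, 1.96, 1.31 and 1.46 in PAR1-/- bladders and 1.39, 1.61, 1.36 and 1.13 in WT bladders, so that Cd63 reached 3-fold in neither genotype.
Tspan6 had 101, 113, 171 and 87 in PAR1-/- bladders, against 26 after saline, and 66, 65, 123 and 46 in WT bladders, against 52 after saline. Here the saline arrays themselves differed, with a PAR1-/- level 0.493 times the WT level. Tspan5 was above background on 1 array, and Cd151 and Tspan3 on none.

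Upk2, which encodes the uroplakin that pairs with Upk1a in the plaque, was the 1 uroplakin of the set. Its intensity was 32, 20, 31 and 18 in PAR1-/- bladders, against 10 after saline. In WT bladders it was 17, 15, 33 and 9, against 8 after saline. It was above background on 4 arrays, of which 3 were PAR1-/- arrays and 1 was the WT array of SP at 4 h. The only ratio it allowed was at least 1.24 in PAR1-/- bladders after LPS at 4 h. In WT bladders no ratio was given. After SP at 4 h the WT probe was above background, but its normalized value of 19.7 lay under the normalized threshold of 21.4 of the WT saline array.

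Among the keratins, Krt71 reached 3-fold in 1 comparison. It is a type II keratin of the inner root sheath of hair follicles. Its intensity was 23, 19, 38 and 34 in PAR1-/- bladders, against 12 after saline. The WT arrays gave 35, 15, 185 and 16, against 12 after saline. The WT array of SP at 4 h stood alone. The ratio there was at least 4.26, with at least 1.60 after LPS at 4 h and at least 1.32 after SP at 24 h, and the 1 ratio in PAR1-/- bladders was at least 1.29 after SP at 24 h. Between genotypes, the PAR1-/- level after SP at 4 h was 0.192 times the WT level, where 2.7% of all probes were more than 3-fold lower.

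Krt6a and Krt6b are near-identical type II keratins of stratified epithelia, induced in skin wounds, and a cDNA probe for one may also bind the transcript of the other. Krt6a had intensities of 99, 57, 147 and 76 in PAR1-/- bladders, against 18 after saline, and 51, 31, 114 and 16 in WT bladders, against 14 after saline. Krt6b had 61, 129, 225 and 69 in PAR1-/- bladders, against 20 after saline, and 57, 15, 114 and 12 in WT bladders, against 13 after saline. Before normalization both intensities were highest after SP at 4 h in each genotype. After normalization this held in WT bladders only. In PAR1-/- bladders Krt6a was then highest after LPS at 4 h and Krt6b after LPS at 24 h. The Krt6a ratios were 2.17, 1.36, 1.59 and 1.63 in PAR1-/- bladders, and 2.03, 2.44 and 1.16 in WT bladders after LPS at 4 h, SP at 4 h and SP at 24 h. The Krt6b ratios were 1.22, 2.41, 2.05 and 1.31 in PAR1-/- bladders, and 2.47, 2.66 and at most 0.916 in WT bladders. All 4 WT values at 4 h were between 2 and 3-fold, as were 3 of the 8 PAR1-/- values.

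Krt13, a type I keratin of mucosal epithelia and of urothelium, had intensities of 67, 59, 75 and 43 in PAR1-/- bladders, against 23 after saline, and 26, 15, 54 and 22 in WT bladders, against 13 after saline. The saline level was 2.22 times higher in PAR1-/- than in WT bladders. The ratios ran from 0.648 to 1.12 in PAR1-/- bladders and from 1.15 to 1.86 in WT bladders. Krt4, the usual partner of Krt13, was above background on 1 array.
Krt19, a keratin of simple epithelia and urothelium, had ratios of at least 1.06 and at least 1.02 in PAR1-/- bladders after LPS at 4 h and SP at 24 h, and 0.960, 0.660 and 0.992 in WT bladders after LPS at 4 h, SP at 4 h and SP at 24 h. Krt18, also of simple epithelia, was above background on 3 arrays with a highest intensity of 27. The basal keratin Krt15 was at background on all 10 arrays.
Krt1, a keratin of the upper epidermis, gave 8 in PAR1-/- and 12 in WT bladders after saline, both at background. When challenged it had 39, 31, 64 and 38 in PAR1-/- bladders, against 39, 15, 37 and 11 in WT bladders. Its ratios were at least 1.49, 1.30, 1.23 and 1.43 in PAR1-/- bladders, and the WT bounds at 4 h were at least 1.78 for LPS and at least 1.02 for SP.

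The hair keratin Krt35 kept ratios between 1.00 and 1.37 in PAR1-/- bladders, and its measured WT ratios ran from 0.926 to 1.23. Krt27, of the inner root sheath, had its lowest ratio, 0.469, in WT bladders 4 h after SP. The wound keratins Krt16 and Krt17 were above background on 1 and 3 arrays, and Krt17 was at most 0.477 after SP at 4 h in PAR1-/- bladders. Krt31 was above background on 1 array, and Krt12 and Krt32 on none. Of the 9 keratin-associated proteins, which cross-link hair keratins, 5 were at background on all arrays, and Krtap9-1 had ratios between 0.774 and 1.28 in PAR1-/- bladders and between 0.854 and 1.82 in WT bladders.

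Among the tight junction genes, claudin 3 (Cldn3), of sealing junctions in epithelia, was above background on all 10 arrays. It had 111, 180, 254 and 133 in PAR1-/- bladders, against 34 after saline, and 72, 91, 152 and 40 in WT bladders, against 48 after saline. The ratios were 1.10, 1.67, 1.19 and 1.22 in PAR1-/- bladders and 0.650, 0.970, 0.722 and 0.795 in WT bladders. Claudin 14 (Cldn14), known from the inner ear and kidney, had the lowest bound of the set, at most 0.400 in WT bladders after SP at 24 h, with intensities of 11 there and 26 after saline. Its PAR1-/- ratios ran from 1.13 to 1.52. Claudin 1 (Cldn1) was above background on 5 arrays, and Cldn2, Cldn5, Cldn9, Cldn11 and Cldn18 on none.

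The catenins and the remaining junction genes stayed within 3-fold. β-catenin (Ctnnb1), which links cadherins to the cytoskeleton and acts in Wnt signalling, had ratios of 0.676, 1.62, 0.621 and 1.88 in PAR1-/- bladders, with both 24 h values above both 4 h values. The WT bounds at 4 h were at least 1.42 for LPS and at least 1.26 for SP. Ctnnd2, a neural catenin, had ratios between 1.19 and 1.36 in PAR1-/- bladders and at least 2.12 in WT bladders 4 h after SP. Ctnna2, also neural, was above background on the WT saline array alone, and was at most 0.425 in WT bladders 4 h after SP. The desmosomal cadherin Dsc3 was above background on 4 arrays and the connexin Gjd2 on 7, while the connexins Gja3, Gja10 and Gjb6 were at background throughout. The protocadherins Pcdh10, Pcdha4 and Pcdha6 were above background on 1 to 3 arrays, with a highest intensity of 65 for Pcdh10 in PAR1-/- bladders after SP at 4 h.

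The genotypes were also compared directly at the same condition. After saline, 1 of 24 genes, Cdh17, was more than 3-fold higher in PAR1-/- bladders, where 0.949% of all probes were, and no gene of the set was more than 3-fold lower, where 0.474% were. Across the 5 conditions taken as blocks, limma called no gene for genotype at an adjusted p of 0.05 (0 of 26 tested, against 0% of all 2014 probes). At an unadjusted p of 0.05, 7 of the 26 genes (26.9%) and 197 of the 2014 probes (9.78%) passed, all 7 with higher values in PAR1-/- bladders. They were Cdh1 (log2 difference 1.04 ± 0.29 SE, limma adjusted p = 0.322), Cdh16 (1.10 ± 0.33), Krt6b (1.14 ± 0.37), Cd82 (0.89 ± 0.30), Krt13 (0.82 ± 0.33), Cdh17 (1.11 ± 0.52) and Krt6a (0.61 ± 0.29). Unlike in the ratios, values under background were not raised to the threshold here. With all values raised to the highest normalized threshold, the differences were 0.73, 0.67, 0.64, 0.89, 0.38, 0.31 and 0.48 in the same order. The median log2 difference was 0.32 over the 26 genes and 0.13 over all probes tested.
Cd82, Cdh2, Krt6b and Cdh16 were the genes more than 3-fold higher in PAR1-/- bladders at 24 h after LPS or SP. Their PAR1-/- over WT ratio was higher at 24 h than at 4 h with each agent, which this choice of genes favours. The median of all probes was also higher at 24 h. It was 1.18 after LPS at 24 h and 0.802 at 4 h, and 1.04 after SP at 24 h and 0.918 at 4 h. After SP, other genes of the set went the other way. Among them were Krt13, Cldn3 and Tspan6, with 0.870, 1.16 and 0.673 at 24 h against 1.05, 1.24 and 1.05 at 4 h. Krtap6-2, Krtap9-1, Krt27 and Gjd2 were also lower at 24 h than at 4 h after SP. Genes beyond 3-fold higher in PAR1-/- bladders were 3 of 17 after LPS at 24 h (2.82% of all probes), 2 of 24 after SP at 24 h (2.01%), and none at 4 h (0.194% after LPS and 0.761% after SP). Genes beyond 3-fold lower were 0 of 17 after LPS at 24 h (4.08% of all probes), 0 of 24 after SP at 24 h (1.91%), 0 of 25 after LPS at 4 h (4.69%) and 1 of 33 after SP at 4 h (2.7%), which was Krt71. After LPS at 24 h the PAR1-/- level was 3.13 times the WT level for Cd82, 3.18 times for Cdh2, at least 3.14 times for Krt6b and at least 1.65 times for Cdh16. After SP at 24 h it was 2.61 times for Cd82, 3.12 times for Cdh2, at least 2.68 times for Krt6b and at least 3.59 times for Cdh16. At 4 h after LPS and SP the same ratios were 1.24 and 1.56 for Cd82, 0.491 and 0.746 for Cdh2, 0.924 and 1.44 for Krt6b, and 1.48 and 1.81 for Cdh16. Without the LPS pair at 24 h, 4 of the 26 genes had an unadjusted p under 0.05, a count for which no share of all probes was taken. The median log2 differences were then 0.11 over the 26 genes and -0.01 over all probes. Without the LPS pair at 4 h, 2 genes passed limma's adjusted p (Krt6b and Cdh17, the lower adjusted p being 0.0171), where 32 of 2014 probes passed. Without the SP pair at 4 h 1 gene did (Cdh17, limma adjusted p = 0.00571), where 23 of 2014 probes passed. The level of Cdh17 is open to the factor given above.

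**Figure D4:**
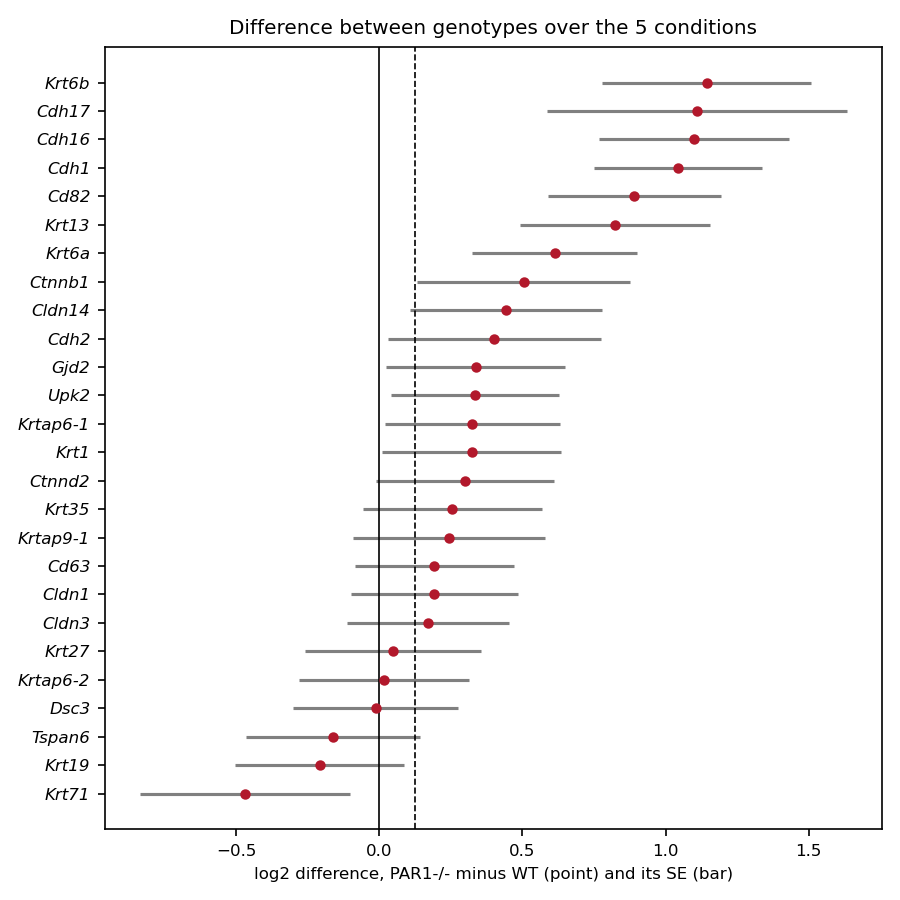
Points are log2 differences in normalized intensity, PAR1-/- minus WT, for the 26 genes tested, with the SE as bars. The dashed line is the median of all 2014 probes at 0.13. The 7 upper genes, Krt6b to Krt6a, had an unadjusted p under 0.05, and none passed the adjusted p.

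Other limma contrasts called no gene of the set either. Of simulated log2 differences of 2, 47.5% were recovered for the difference between genotypes in the effect of LPS or SP, against 100% for each other contrast. The differences named below were smaller, at most 1.21. Recovery at such sizes was not simulated, so the 100% does not hold for them. For time (4 h minus 24 h on the challenged arrays) 0 of 26 genes passed, against 0.645% of all probes. An unadjusted p under 0.05 was found for 2 genes (7.69%), against 6.70% of all probes. They were Cdh17 (log2 difference 1.18 ± 0.42 SE, limma adjusted p = 0.281) and Cdh16 (1.17 ± 0.42). For stimulus (LPS minus SP) 0 of 26 passed, against 0% of all probes. At an unadjusted p under 0.05 were 2 genes (7.69%), against 2.78% of all probes. They were Cdh17 (-1.09 ± 0.43) and Krt71 (-0.73 ± 0.33), both lower after LPS. For challenge (LPS or SP minus saline) 0 of 26 passed, against 0.0497% of all probes. At an unadjusted p under 0.05 were 2 genes (7.69%), against 8.84% of all probes. They were Cd82 (1.20 ± 0.39) and Cdh2 (1.21 ± 0.47). For the difference of that effect between genotypes 0 of 26 passed, against 0% of all probes, and none had an unadjusted p under 0.05. Without the WT array of 24 h after LPS, 1 gene passed here (Cdh17, limma adjusted p = 0.0345), where 2 of 2014 probes passed. The factor given above leaves the level of Cdh17 open here too.

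Partners of the set on the array gave few changes. None of the 5 measured probes for desmosome and adherens partners, 6 for tight junction partners, 8 for the hemidesmosome and basement membrane, 11 for the cornified envelope, 9 for other intermediate filaments and 16 for epithelial transcription factors was beyond 3-fold in either direction in either genotype. Only 2 to 6 probes of each list had a ratio in PAR1-/- and 2 to 7 in WT bladders. The median ratios of these lists, pooled over 4 comparisons, were 0.730, 0.772, 0.674, 1.14, 0.906 and 1.14 in PAR1-/- bladders and 0.636, 0.726, 0.919, 1.21, 0.933 and 0.888 in WT bladders, where all probes had 0.962 and 1.02. Cystatin B (Cstb), a protease inhibitor of the cornified envelope, had the highest ratio among them in PAR1-/- bladders, 2.48.
The list of urothelium markers shares 5 probes with the set. Of its 13 measured probes, 8 were above background on at least 1 array, none on all 10, and the transcription factors Pparg, Foxa1 and Trp63 on none. Their summed intensity was between 153 and 496 on the challenged arrays, against 151 on the PAR1-/- and 145 on the WT saline array, and was 0.133% to 0.226% of the array's total. None was beyond 3-fold, and their median ratio was 1.06 in PAR1-/- and 0.992 in WT bladders.
Markers of other cells were measured beside them. All 6 smooth muscle probes were above background on at least 1 array, with a median ratio of 1.23 in PAR1-/- and 1.14 in WT bladders. Their summed intensity, before normalization, was between 230 and 1244 on the challenged arrays, against 220 on the PAR1-/- and 153 on the WT saline array. It was 0.213% to 0.534% of the array's total, and 1 probe, Smtn, alone ran from 68 to 952. Of the smooth muscle probes, smooth muscle actin (Acta2) had normalized ratios between 0.0398 and 0.340 in PAR1-/- bladders, with intensities of 152, 131, 29 and 151, against 112 after saline. Its WT ratios lay between 0.862 and 4.10, with intensities of 194, 136, 69 and 44, against 23 after saline. Sums of 85 to 618 on challenged arrays, against 81 on the PAR1-/- and 92 on the WT saline array, were found for 5 endothelium probes, of which Pecam1, Kdr and Flt1 were at background throughout. These sums were 0.116% to 0.305% of the array's total, and Tie1 alone ran from 45 to 557. Leukocyte markers (7 probes) summed to 79 to 178, against 68 on the PAR1-/- and 82 on the WT saline array, with Cd3e, Cd68 and S100a8 at background throughout. Their share of the array's total was 0.0506% to 0.114%. Fibroblast (5 probes) and nerve and glia (5 probes) markers had 2 probes each above background. No marker of these last 4 lists was beyond 3-fold, but only 1 or 2 probes of each had a ratio in a genotype. The endothelial receptor Tie1 had ratios between 1.69 and 2.63 in PAR1-/- and between 0.782 and 1.55 in WT bladders. S100a9, of neutrophils, had ratios or bounds of 0.598 to 0.707 in PAR1-/- and 0.517 to 1.05 in WT bladders. Pdgfra, of fibroblasts, had 1.34 to 1.87 in PAR1-/- and 0.899 to 1.47 in WT bladders, and the filament gene Vim 0.498 to 0.717 and 0.560 to 1.44. Of the nerve and glia list only Mbp in PAR1-/- (at least 1.92) and Nefm in WT bladders (at least 1.94) had a ratio. The part of cell composition in the ratios of the set was not tested.

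For 5 genes no intensity was recovered, and only the order of their standardized scores is known. Cd9, a tetraspanin, was highest in WT bladders 24 h after LPS and equal on both saline arrays, where it was lowest. Cdh5, the cadherin of endothelium, was highest in WT bladders after SP at 4 h and lowest in PAR1-/- bladders after saline. Cldn4, a claudin of umbrella cells, was highest in WT bladders after LPS at 4 h. Cdh6 and Pcdh12 were highest in PAR1-/- bladders after SP at 4 h, and these 2 and Cldn4 were lowest in WT bladders after SP at 24 h.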

How the data were processed

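Messenger RNA of 8 pooled bladders per array was read on 10 Atlas plastic arrays of Clontech. The authors deposited 1 standardized score per probe and array, whose making is not described in the sources used here. In the values, log2 of the score has mean 0 and the same SD for every probe. Whole-number intensities that give these scores were searched up to 3000 and accepted at under 0.01 expected chance matches. They were found for 4794 of 5030 probes (95.3%), and all of them remake the scores within 0.0001 on the log2 scale. Intensities are known only up to a common factor per probe. The search and the tests were first tried on simulated data.

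Intensities were normalized by rlm of MASS over the 502 probes above background on all arrays, in R 4.3.3. Calls were ratios or bounds beyond 3-fold. Probes above background on at least 4 arrays (2014, of which 26 in the set) were tested with limma 3.58.1 and Benjamini-Hochberg adjustment, with condition as a block for genotype. Arrays of different conditions serve as replicates in these tests, and values under background entered them as they were. All 73 gene identifiers matched RefSeq. Every uroplakin and keratin with a value, Cd63, Upk2, Krt1, each gene beyond 3-fold or above background on all arrays, and in each group the gene with the highest mean normalized intensity were to be named; other genes of the set were added after their values were seen. The genes of the set and the lists were chosen with earlier results of these data known. The labels give SP at 10 µM in WT and 20 µM in PAR1-/- mice, while the methods give 1 dose for all. Array number and low signal limit precision. Alternatives were other normalizations, thresholds, folds, saline references, filters and arrays left out.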

Additional observations from a re-analysis of the deposited data

Results flagged for a closer look

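For Tspan6 and Cldn3 the ratios to saline ran in opposite directions in the genotypes after normalization. Tspan6 had 1.41, 1.56, 1.16 and 1.17 in PAR1-/- bladders (LPS 4 h, LPS 24 h, SP 4 h, SP 24 h), against 0.543, 0.599, 0.544 and 0.854 in WT bladders. Cldn3 had 1.10, 1.67, 1.19 and 1.22 in PAR1-/- bladders, against 0.650, 0.970, 0.722 and 0.795 in WT bladders. In each genotype the 4 ratios share 1 saline array, and the saline level in PAR1-/- bladders was 0.493 times that in WT bladders for Tspan6 and 0.755 times for Cldn3. The difference in challenge effect between genotypes, tested with limma, was 1.07 ± 0.63 (SE) on the log2 scale for Tspan6 and 0.72 ± 0.63 for Cldn3, with an adjusted p of 0.999 for each. Set against the mean of both saline arrays, 1 of 4 PAR1-/- and 1 of 4 WT ratios of Tspan6 were above 1, and 3 of 4 and 1 of 4 of Cldn3. Without normalization all 4 PAR1-/- ratios and 3 of 4 WT ratios were above 1 for each gene (WT 0.885 to 2.37 for Tspan6 and 0.833 to 3.17 for Cldn3), and with quantile normalization 1 of 4 PAR1-/- ratios of Cldn3 was below 1 (0.979), so the opposite directions depend on the scaling and on the saline array used.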

How the results depend on the processing

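Without normalization between arrays, 24 genes of the set were more than 3-fold above saline in PAR1-/- and 16 in WT bladders. Of all probes with a ratio, 1415 of 2660 and 1088 of 2712 were. The median log2 ratio of all probes was then between 1.18 and 2.16 in PAR1-/- and between 0 and 1.70 in WT bladders, against -0.17 to 0.15 after normalization. At 2-fold, 5 genes were higher in PAR1-/- and 8 in WT bladders, where 235 of 2003 and 432 of 2490 probes were. Lower at 2-fold were 1 gene (Krt17) and 3 genes (Cldn14, Ctnna2, Krt27), where 401 and 242 probes were. On 24 h arrays only, 1 gene was higher in each genotype (Cdh2 in PAR1-/-, Cdh17 in WT), where 43 of 1932 and 26 of 1819 probes were. With a shift to equal means in place of the regression, 1 gene was lower in PAR1-/- (Krt17) and 2 in WT bladders (Ctnna2, Krt27). Of all probes, 284 of 1655 and 127 of 2153 were lower under that setting. Other counts of higher and lower genes stayed within 1.5 times. Of 72 alternative values of the ratios beyond 3-fold, 64 stayed beyond 3-fold and 8 were in the same direction within it. The lowest was 1.90, for Cdh17 in WT bladders after SP at 24 h against the mean of both saline arrays. The 64 include every value without normalization between arrays. They also include the values of Cdh17 multiplied by 4 or 5, which were tried after the data were seen. The share of 64 of 72 thus overstates how stable the ratios were. With 1 condition's pair of arrays left out, between 0 and 2 genes passed for genotype. They were Krt6b and Cdh17 without the LPS pair at 4 h (lowest limma adjusted p 0.0171), where 32 of 2014 probes passed. Without the SP pair at 4 h it was Cdh17 (limma adjusted p = 0.00571), where 23 of 2014 probes passed. Without the WT array of LPS at 24 h, 1 gene passed for the difference of challenge between genotypes (Cdh17, limma adjusted p = 0.0345), where 2 of 2014 probes passed. Under the other settings the lowest limma adjusted p of any gene of the set tested was 0.440 to 1.00, and one of these settings did not test Cdh17. The other normalizations and filters left the limma counts past the adjusted p at 0, but moved those at an unadjusted p under 0.05. For genotype these ran from 1 to 9 genes (7 in the report), for time from 0 to 11 (2), for stimulus from 0 to 2 (2), for challenge from 2 to 14 (2) and for the difference between genotypes from 0 to 2 (0), with the 11 and 14 found without normalization. The number of genes tested changed with the filter, so that these counts are not over the same 26 genes. For genotype the 1 was of 5 genes (above background on all 10 arrays) and the 9 was of 68 (no filter). The share of all probes was not taken under these settings. Probes named for the same gene correlated with a median Pearson r of 0.52 over the 10 arrays in 33 pairs, against 0.64 over all pairs, so a single probe is weak evidence for its gene. The cause of these changes was not tested.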
